A study of Mus musculus with 6 samples.

Results

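The genes described here build, check and dispose of proteins in the endoplasmic reticulum (ER). They are 44 symbols given as a list, which holds ER chaperones, disulfide isomerases, the calnexin cycle, ER-associated degradation, and the sensors and transcription factors of the Xbp1, Atf6 and Atf4 arms of the unfolded protein response. All 44 are among the 24908 genes of the deposited table. A mean of at least 1 FPKM (a read count corrected for transcript length and for library depth) over the 6 libraries was reached by 43 of them, and by 12361 genes in the whole table. The exception was Ern2, with a mean of 0.0517 FPKM, whereas the lowest mean among the others was 5.98 FPKM (Trib3).

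A secretory cell folds its export proteins in the ER, where the Hsp70 chaperone BiP and its co-factors hold nascent chains, disulfide isomerases set their cysteine bridges and the calnexin cycle checks their sugars. Proteins that fail are pulled back into the cytosol and degraded. Load in the ER is read by IRE1, which splices the Xbp1 mRNA so that active XBP1 is made, by ATF6, a membrane-bound transcription factor, and by PERK, whose signal raises the translation of Atf4. The prostate is a gland whose luminal cells secrete large amounts of protein into the seminal fluid.

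The 6 libraries came from the anterior (AP), dorsolateral (DLP) and ventral (VP) prostate of 2 male FVB mice aged 12 weeks. One was a Hi-MYC animal, heterozygous for a human c-MYC transgene that the ARR2Pb promoter drives in prostate epithelium (MYC), and the other a wild-type littermate (WT), and both were kept on a purified diet. Each lobe was dissociated to a cell suspension before RNA extraction, and 1 stranded poly(A) library was made per lobe and genotype. With 1 library per group and 1 animal per genotype there is no replicate check, and effects of the transgene and differences among mice cannot be told apart.

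Depth was recovered from the steps of low FPKM values, and WT AP was shallowest at 25.48 M mapped reads while MYC AP was deepest at 50.22 M. The highest-expressed genes in this group are therefore counted with small error. The exact 95% interval of the read ratio between MYC and WT, which covers counting error only, had a median width of 0.14 on the log2 scale in AP and DLP and 0.12 in VP, and was widest for Trib3 (0.72 in VP). The luminal keratin Krt8 stood at 399.9 to 1292 FPKM in WT and 387.9 to 1101 FPKM in MYC, so each library holds luminal epithelium.

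Some promoters of these genes hold a sequence known from the unfolded protein response. The ER stress response element (ERSE), which ATF6 reads together with the CCAAT-binding factor NF-Y, was searched for on both strands as CCAAT and CCACG with 9 bases of any kind between them, from 250 bases before to 50 bases after each RefSeq gene start (GRCm38.p6). Of the 44 genes, 38 have a window in the table. An exact match was found in 39 of all 32851 windows (0.119%), and in the windows of 9 of the 38 genes. The stretches are printed because they name the members whose values are compared by promoter further on. Each is read 5′ to 3′ on the strand of its gene with the fixed letters of the match in capitals. A match on the opposite strand reads CGTGG before ATTGG.
Hspa5 (chr2:34772013-34772055, plus strand): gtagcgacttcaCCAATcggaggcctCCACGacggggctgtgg
Hsp90b1 (chr10:86705521-86705668, minus strand): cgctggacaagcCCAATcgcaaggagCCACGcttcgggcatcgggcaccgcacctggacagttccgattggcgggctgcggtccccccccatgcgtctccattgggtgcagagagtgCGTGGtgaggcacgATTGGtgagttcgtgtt
Dnajc3 (chr14:118937815-118937857, plus strand): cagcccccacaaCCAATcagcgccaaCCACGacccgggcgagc
Creld2 (chr15:88819508-88819550, plus strand): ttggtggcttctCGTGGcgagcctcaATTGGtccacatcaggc
Pdia6 (chr12:17266479-17266521, plus strand): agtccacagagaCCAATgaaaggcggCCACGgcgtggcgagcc
Calr (chr8:84847063-84847105, minus strand): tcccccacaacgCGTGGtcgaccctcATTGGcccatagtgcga
Canx (chr11:50325788-50325830, minus strand): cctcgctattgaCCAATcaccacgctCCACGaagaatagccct
Derl3 (chr10:75893230-75893272, plus strand): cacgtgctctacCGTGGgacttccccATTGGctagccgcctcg
Syvn1 (chr19:6046520-6046562, plus strand): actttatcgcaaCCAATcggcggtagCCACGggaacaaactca
All 9 stretches lie before the annotated start, and Hsp90b1 holds 2 matches in its 148 bases. The Canx stretch also falls within the annotated gene Gm46280, and the others within no RefSeq gene.

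Most of these genes were lower in the MYC lobes than in the WT lobes, with the highest count past 2-fold in VP as deposited. In VP 18 of the 43 genes were at least 2-fold lower in MYC, against 5.95% of all 12361 genes, and none was 2-fold higher, against 6.88%. In DLP 9 were at least 2-fold lower, where the share of all genes was 3.39%, and none was 2-fold higher (6.46% of all genes). In AP 5 were at least 2-fold lower, beside 0.599% of all genes, and none was 2-fold higher (2.05%). In AP, DLP and VP the median log2 ratio of the 43 was -0.17, -0.65 and -0.70, and that of all genes tested 0.13, 0.03 and 0.04. Ratios are of FPKM + 1 unless a fold of FPKM is named. In RNA of a mixed cell suspension, fewer cells of a type and less RNA per cell cannot be told apart.

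At 1.5-fold the same direction held. There 26 members were lower and 3 higher in VP (14.9% and 16.7% of all genes), 24 lower and none higher in DLP (9.44% and 13.4%), and 11 lower and 1 higher in AP (3.13% and 7.53%). The 3 higher in VP were Pdia5, Edem3 and Atf6b. The 9 members lower by 2-fold in DLP were all among the 18 of VP, and 1.88% of all genes were lower by 2-fold in both. Lower by 1.5-fold in all 3 lobes were 9 members, Hyou1, Dnajc3, Sdf2l1, Manf, Creld2, Pdia4, Derl3, Trib3 and Chac1, beside 0.558% of all genes, and in DLP and VP 19 members (5.89%).

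**Figure D1:**
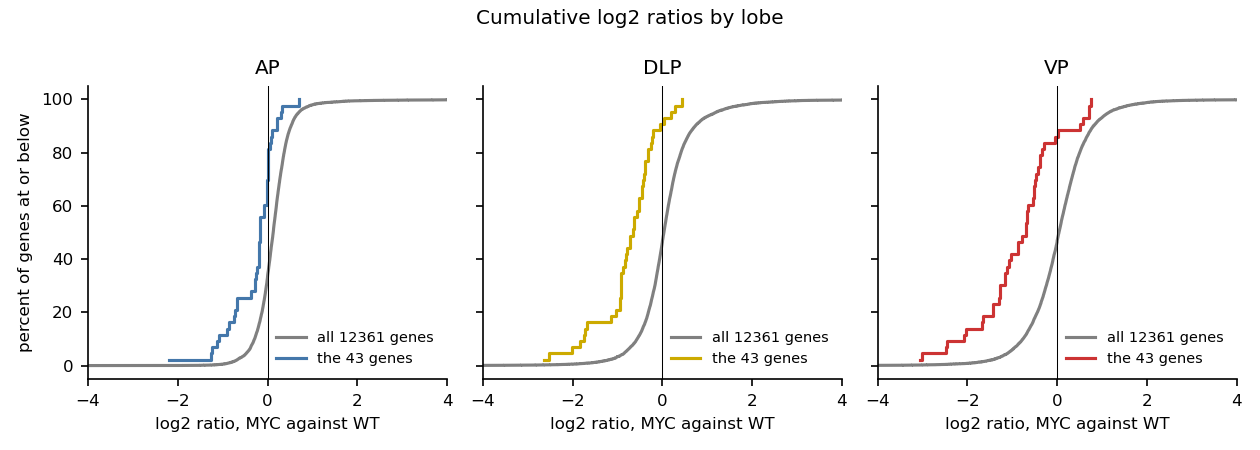
Cumulative share of genes (y axis, percent) at or below each log2 ratio of MYC against WT (x axis), for the 43 genes (coloured) and all 12361 genes tested (grey), in 1 panel per lobe. The coloured curve lies left of the grey one in each lobe, with 32 of 43 genes below 0 in AP (33.3% of all genes), 39 in DLP (46.2%) and 37 in VP (46.4%).

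Scaling changes the size of these shifts and which lobe has the highest count. Relative to the mean of the luminal keratins Krt8 and Krt18 the median of the 43 for AP, DLP and VP became 0.01, -0.88 and -0.43, and that of all genes 0.29, -0.17 and 0.23. With FPKM brought to equal sums per library, which turned the split of all genes past 2-fold in VP from 736 lower and 850 higher to 1086 lower and 553 higher, the VP median of the 43 was -0.93. Relative to the keratins 3 members were lower by 2-fold in AP, 19 in DLP and 13 in VP, and of all 12361 genes 54, 742 and 321 were, so the count of all genes was also highest in DLP. With equal sums 21 members were lower in VP.

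Markers of other cells moved between the same libraries. All 12 hematopoietic markers were at least 2-fold higher in MYC DLP, where their summed level went from 119.53 to 484.02 FPKM, and 8 of 12 were in VP (60.632 to 274.6 FPKM). Of 12 fibroblast markers, 8 were at least 2-fold lower in VP, with a sum of 1253.1 FPKM in WT and 352.21 FPKM in MYC, while in DLP 3 were lower and 2 higher and in AP none was lower and 3 were higher. All 10 smooth muscle markers had ratios below 0 in DLP and in VP, where 3 each passed 2-fold, and their sums went from 618.57 to 367.31 FPKM and from 513.21 to 296.3 FPKM. In AP 9 of these 10 had ratios above 0 and none passed 2-fold, with a sum of 395.54 FPKM in WT and 537.78 FPKM in MYC. Of 10 endothelial markers none passed 1.5-fold in any lobe. The summed level of 8 basal markers went from 2414.1 to 1313.2 FPKM in AP and from 771.15 to 513.73 FPKM in VP, and from 1634.3 to 2171 FPKM in DLP. Past 2-fold, 2 of the 8 were lower (Krt14 and Krt17) and 1 was higher (Trp63) in AP. In DLP 2 were higher and none lower, and in VP 1 was lower and none higher. Of 10 plasma cell markers 5 were tested, with medians of -0.08, 0.54 and -0.07 in AP, DLP and VP and sums of 77.004 to 140.07 FPKM in WT and 105 to 164.8 FPKM in MYC. Jchain, Mzb1 and Tnfrsf17 of that list were at most 0.2546, 0.2465 and 0.1292 FPKM in any library, whereas the B cell and plasma cell genes Cd79a and Irf4 were higher in MYC DLP (0.745 to 5.06 and 0.363 to 2.14 FPKM). MYC AP also held seminal vesicle secretory transcripts, whose 9 genes summed to 524.07 FPKM against 0.11185 FPKM in WT AP. The part of these cells in the result was not tested.

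**Figure D2:**
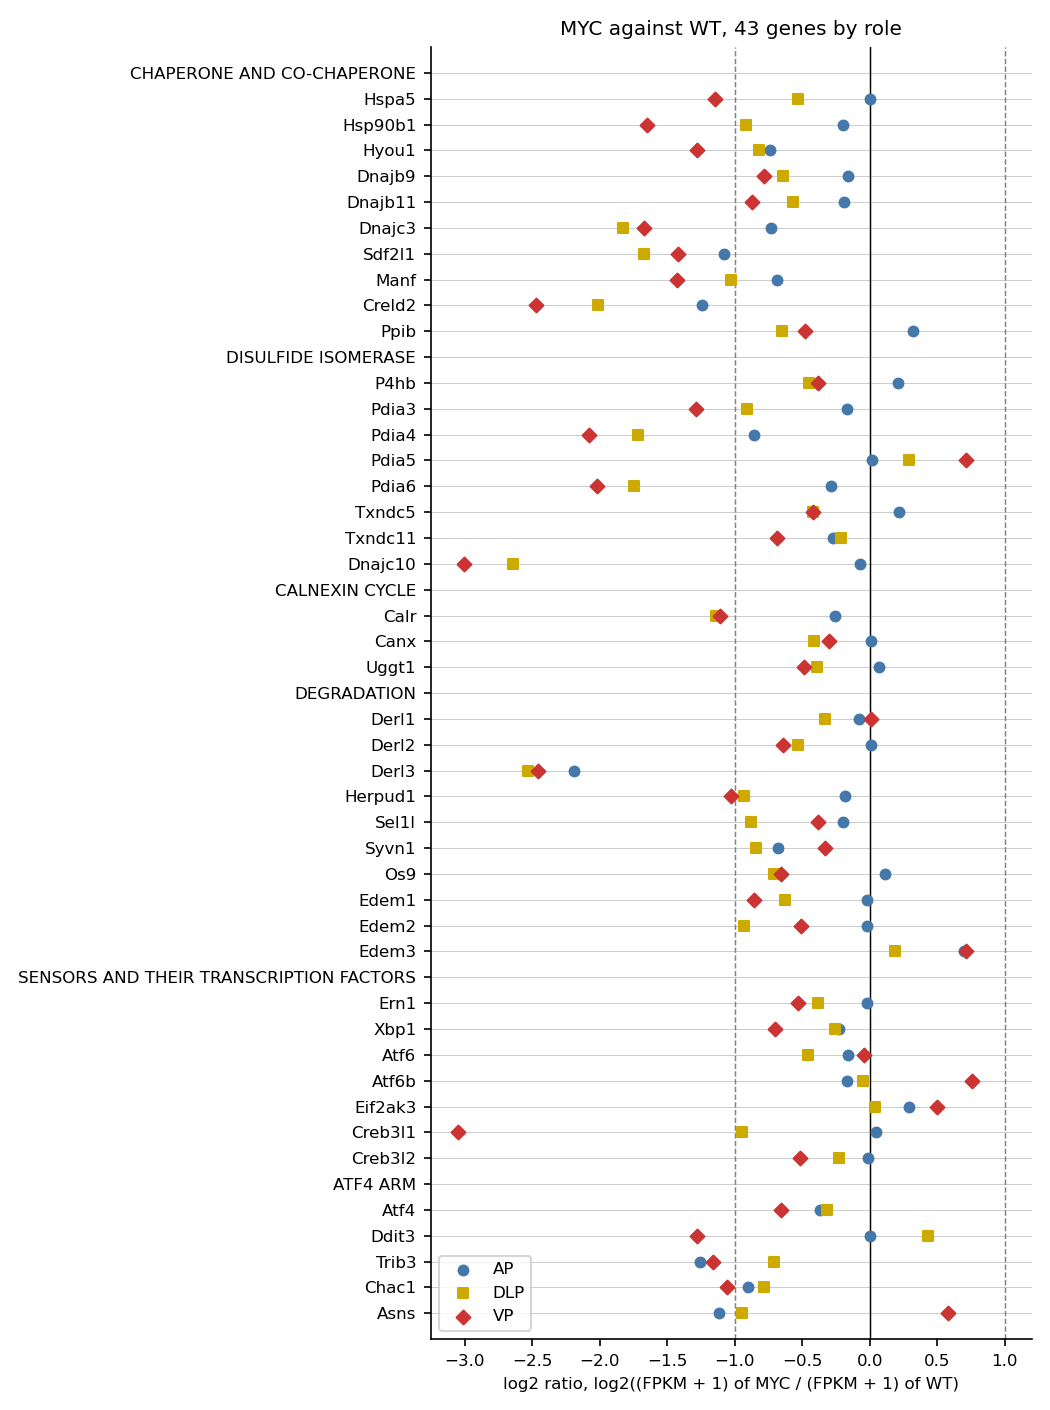
Log2 ratio of MYC against WT on FPKM + 1 (x axis) for each of the 43 genes (y axis, grouped by role) in AP, DLP and VP, with dashed lines at 2-fold. Points of VP and DLP lie mostly left of those of AP, with Creb3l1 (-3.05) and Dnajc10 (-3.01) lowest in VP and no point right of the line for 2-fold higher.

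The chaperones and co-chaperones were lower as a group, with median log2 ratios over 10 genes of -0.45, -0.87 and -1.35 for AP, DLP and VP. At least 2-fold lower were 2, 4 and 7 of them in the same order, beside 0.599%, 3.39% and 5.95% of all genes. Their summed level fell from 4877 to 2004.1 FPKM in VP and from 3515.3 to 1949.7 FPKM in DLP, and stood at 3009.6 FPKM in WT AP and 2580.7 FPKM in MYC AP.

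Hspa5 encodes BiP (HSPA5), the ER Hsp70 and the transcript with the highest mean of the group (chromosome 2, 34772090 to 34776529, GRCm38.p6). It stood at 1245 FPKM in WT AP, 1133 in WT DLP and 1968 in WT VP, and at 1241, 784 and 888 FPKM in the MYC lobes. The AP libraries thus lay side by side, whereas MYC VP was 2.21-fold lower than WT VP. The AP ratio was -0.00 on the log2 scale (counting interval -0.02 to 0.02), the DLP ratio -0.53 and the VP ratio -1.15 (-1.16 to -1.13), and the VP value was -0.88 relative to Krt8 and Krt18. Hspa5 overlaps the neighbouring gene Rabepk in RefSeq, and whether strand was used in counting is not given in the sources used here.

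Hsp90b1, the ER member of the Hsp90 family (GRP94), had the same order of MYC against WT ratios over the lobes. Its level was 613 FPKM in WT AP, 706 in WT DLP and 1203 in WT VP, beside 533, 372 and 382.2 FPKM in MYC. MYC DLP and MYC VP lay near the same level although WT VP was 1.7-fold above WT DLP. The log2 ratios were -0.20, -0.92 and -1.65.

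Hyou1, a large Hsp70-like exchange factor for BiP, had 99.1, 101.4 and 136 FPKM in the WT lobes and 59.1, 57.2 and 55.3 FPKM in the MYC lobes, in the order AP, DLP and VP that is kept from here on. Its 3 MYC values were the closest of the chaperones, and the ratio was -0.74, -0.82 and -1.28. Dnajc3 (p58IPK), a J-domain co-chaperone of BiP, went from 60.7, 87.5 and 89.3 to 36.3, 23.9 and 27.4 FPKM. That is a log2 ratio of -0.73, -1.83 and -1.67, so that DLP fell as far as VP. The J-domain proteins Dnajb9 and Dnajb11 moved less, with Dnajb9 (ERdj4) at -0.16, -0.64 and -0.78 and Dnajb11 (ERdj3) at -0.19, -0.57 and -0.87.

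Sdf2l1 and Creld2, both known as ER stress-induced genes, were past 2-fold in each lobe. Sdf2l1, which acts with the ERdj3 co-chaperone, was listed at 73.6, 142.8 and 111.3 FPKM in WT and 34.4, 44.1 and 40.9 FPKM in MYC. Creld2, an ER protein with EGF-like repeats, was at 224, 289.7 and 299.6 FPKM in WT and at 94.2, 71.0 and 53.2 FPKM in MYC. Its fold of FPKM was 2.38 lower in AP, 4.08 lower in DLP and 5.64 lower in VP. Together with Derl3 these were the 3 members at least 2-fold lower in all 3 lobes, a rule met by 8 of the 12361 genes (0.0647%). Relative to Krt8 and Krt18 the AP ratio of Sdf2l1 was -0.90 and no longer past 2-fold.

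Manf, an ER-resident protein that can be secreted as a trophic factor, fell from 381 to 236 FPKM in AP, from 509 to 248.6 in DLP and from 546 to 201.3 FPKM in VP. In DLP it sat at the limit, with a log2 ratio of -1.03 and a counting interval from -1.08 to -0.99. Ppib, the prolyl isomerase cyclophilin B, did not pass 2-fold in any lobe. Its levels were 191, 418 and 402.5 FPKM in WT and 239, 266 and 288 FPKM in MYC, so that the WT lobes spanned a wider range than the MYC lobes.

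**Figure D3:**
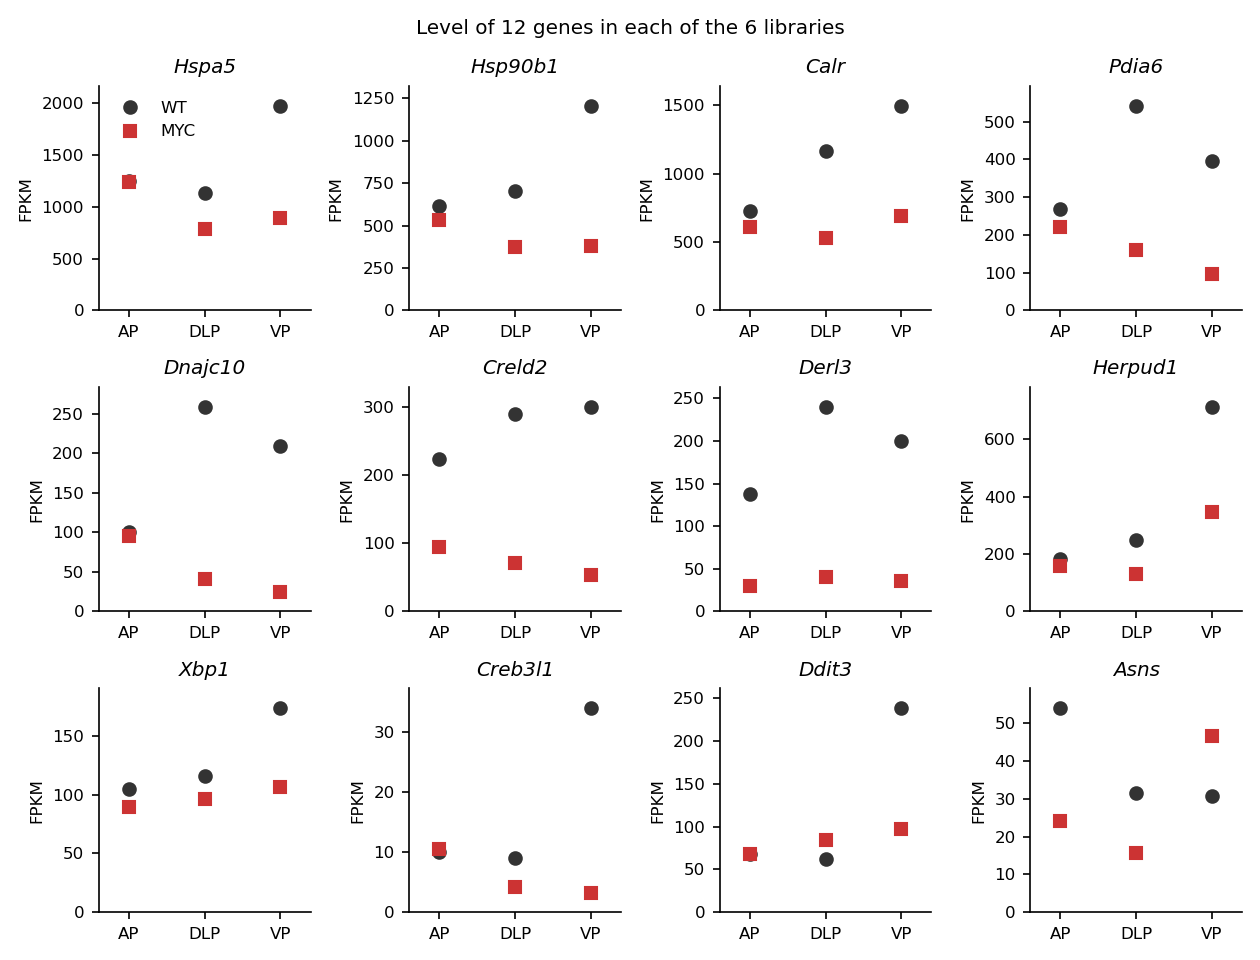
FPKM (y axis) in AP, DLP and VP (x axis) of 12 of the genes, with WT as dark circles and MYC as red squares, 1 library per point. In VP the MYC point lies under the WT point for 11 of the 12 genes and above it for Asns, and in AP the points of Hspa5, Dnajc10, Creb3l1 and Ddit3 nearly coincide.

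Among the 8 disulfide isomerases the genes parted. None was 2-fold lower in AP, 3 were in DLP and 4 in VP (0.599%, 3.39% and 5.95% of all genes). The medians were -0.12, -0.68 and -0.99. The deepest fall was that of Dnajc10 (ERdj5), a disulfide reductase that carries a J domain and helps to unfold proteins for degradation. Its levels were 100.2, 258 and 209.3 FPKM in WT and 95.1, 40.5 and 25.1 FPKM in MYC. AP thus hardly moved (-0.07), whereas FPKM was 6.37-fold lower in DLP and 8.33-fold lower in VP.

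Pdia6 (P5) and Pdia4 (ERp72) came next. Pdia6 was listed at 269, 540.1 and 396 FPKM in WT and 221, 160.1 and 96.6 FPKM in MYC, and its log2 ratio was -0.29, -1.75 and -2.02. Pdia4 had 143, 208 and 174 FPKM in WT and 78.6, 62.4 and 40.4 FPKM in MYC, with ratios of -0.86, -1.72 and -2.08. In both genes MYC VP was the lowest of the 6 libraries and WT DLP the highest. Pdia3 (ERp57), which serves glycoproteins bound to calreticulin or calnexin, went from 297, 429 and 412 to 264, 228 and 168 FPKM, and passed 2-fold in VP (-1.29) but not in DLP (-0.91).

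P4hb, the founding protein disulfide isomerase and a subunit of prolyl 4-hydroxylase, did not follow them. It stood at 178, 350.1 and 533 FPKM in WT and 206, 256 and 408 FPKM in MYC, with ratios of 0.21, -0.45 and -0.38. Txndc5 and Txndc11 lay between -0.69 and 0.22 in each lobe. Pdia5 was a low transcript that ran the other way in VP, from 6.09 to 10.6 FPKM (0.71), and its ratios were 0.02 in AP and 0.29 in DLP.

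In the calnexin cycle the soluble lectin moved and the membrane-bound one less. Calr (calreticulin) was at 729, 1166 and 1492 FPKM in WT and 608, 528 and 692 FPKM in MYC, and passed 2-fold in DLP (-1.14) and VP (-1.11). Canx (calnexin) stood at 76.9, 95.6 and 92.8 FPKM in WT and 77.2, 71.4 and 74.9 FPKM in MYC, with ratios of 0.01, -0.41 and -0.30. Uggt1, which re-glucosylates misfolded glycoproteins so that they re-enter the cycle, was at 14.3, 25.5 and 31.4 FPKM in WT and 15.1, 19.2 and 22.02 FPKM in MYC (0.07, -0.39 and -0.49). Relative to Krt8 and Krt18 the VP ratio of Calr was -0.84.

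The 10 genes of degradation had medians of -0.05, -0.78 and -0.57. Of them 1, 1 and 2 were at least 2-fold lower in AP, DLP and VP (0.599%, 3.39% and 5.95% of all genes). Derl3, an inducible member of the derlin family that serves the export of misfolded proteins from the ER, carried the AP and DLP counts. It was at 137.5, 239.3 and 200.1 FPKM in WT and at 29.3, 40.5 and 35.5 FPKM in MYC. Its fall was alike in the lobes, at 4.7-fold in AP, 5.9-fold in DLP and 5.63-fold in VP on FPKM. Its relatives Derl1 and Derl2 lay between -0.64 and 0.01.

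Herpud1, a membrane protein that organises the degradation complex, joined Derl3 in VP. Its levels were 182, 249 and 712 FPKM in WT and 160.1, 129.8 and 347 FPKM in MYC, with ratios of -0.18, -0.93 and -1.03. MYC VP thus stayed above WT AP and WT DLP although it was 2.05-fold below WT VP, and its ratio relative to Krt8 and Krt18 was -0.77.

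The machinery around the ubiquitin ligase Hrd1 differed by less than 2-fold. Syvn1, which encodes Hrd1, had ratios of -0.68, -0.84 and -0.33, its adaptor Sel1l -0.20, -0.88 and -0.38, and the lectin Os9 0.11, -0.71 and -0.66. Of the mannosidase-like EDEM proteins, which trim glycans of failed proteins, Edem2 went from 26.4, 62.2 and 56.4 to 26.0, 32.2 and 39.4 FPKM, and Edem1 had ratios of -0.02, -0.63 and -0.86. Edem3 rose past 1.5-fold in AP and VP. It was listed at 7.32, 9.48 and 25.1 FPKM in WT and 12.5, 11 and 41.6 FPKM in MYC, and it was the 1 member that was 1.5-fold higher in AP.

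The sensors themselves moved little. Ern1, which encodes IRE1α, was at 24.0, 35.1 and 19.8 FPKM in WT and 23.7, 26.8 and 13.4 FPKM in MYC (-0.02, -0.38 and -0.53). Its epithelial paralogue Ern2 was at most 0.1966 FPKM in any library. Atf6 stood at 20.8, 16.2 and 15.9 FPKM in WT and 18.5, 11.5 and 15.4 FPKM in MYC (-0.16, -0.46 and -0.04). Eif2ak3, which encodes PERK, ran higher in MYC VP, with 10.9, 11.1 and 41.5 FPKM in WT and 13.6, 11.5 and 59.2 FPKM in MYC (0.29, 0.04 and 0.50).

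Of the transcription factors, Xbp1 was at 104.9, 115.5 and 173 FPKM in WT and 89.3, 96.3 and 106.5 FPKM in MYC, with ratios of -0.23, -0.26 and -0.70. The table gives 1 value per symbol, so the spliced and unspliced forms of the Xbp1 mRNA cannot be told apart. Creb3l1 (OASIS), a membrane-bound relative of ATF6, had the lowest ratio of all members. It stood at 10.1, 9.05 and 33.9 FPKM in WT and at 10.5, 4.19 and 3.22 FPKM in MYC. Its high WT VP level was absent from MYC VP, where FPKM was 10.6-fold lower (-3.05 on FPKM + 1), while the AP libraries differed by 0.05. Its relative Creb3l2 had ratios of -0.01, -0.23 and -0.52, and Atf6b rose in VP alone of the 3 lobes, from 22.8 to 39.4 FPKM (0.76).

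The Atf4 arm had the lowest AP median of the 6 roles, with medians of -0.90, -0.71 and -1.06 over 5 genes. Atf4 itself, an abundant transcript whose output is set mainly by translation, was at 587, 507 and 652 FPKM in WT and 453, 406 and 411 FPKM in MYC (-0.37, -0.32 and -0.66). Trib3, a pseudokinase gene induced by ATF4 and CHOP, went from 11.04, 8.58 and 5.48 to 4.02, 4.88 and 1.90 FPKM, with ratios of -1.26, -0.71 and -1.16. Chac1, which encodes a glutathione-degrading enzyme, went from 28.7, 23.2 and 24.2 to 15.0, 13.1 and 11.1 FPKM (-0.90, -0.78 and -1.06). Relative to Krt8 and Krt18 the VP ratios were -0.79 for Trib3 and -0.77 for Chac1, under 2-fold.

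Ddit3 and Asns differed in sign between lobes. Ddit3, which encodes the pro-apoptotic factor CHOP, was at 68.5, 61.9 and 237.6 FPKM in WT and at 68.4, 84.1 and 97.3 FPKM in MYC. The WT VP library alone stood apart, and the ratios were -0.00, 0.43 and -1.28. The gene overlaps Mbd6 and Mars1 in RefSeq. Asns, asparagine synthetase, was at 53.8, 31.5 and 30.8 FPKM in WT and at 24.2, 15.7 and 46.5 FPKM in MYC. It was thus lower in MYC AP and DLP (-1.12 and -0.95) and higher in MYC VP (0.58), and its AP ratio relative to Krt8 and Krt18 was -0.95.

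For the ATF4 arm the matching sequence is the C/EBP-ATF response element, searched for as TGATGNAA on both strands in the same windows. It was found in 3.97% of all windows and in those of Trib3, Chac1, Asns, Herpud1 and Txndc5. The stretches of Asns and Chac1 are shown because these targets differ in VP, and capitals mark the fixed letters.
Asns (chr6:7693213-7693244, minus strand): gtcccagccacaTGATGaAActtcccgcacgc
Chac1 (chr2:119351037-119351068, plus strand): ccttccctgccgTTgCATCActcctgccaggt
Herpud1 also holds ERSE-II, a shorter element searched for on both strands as ATTGG and CCACG with 1 base between them, which occurs in 0.0365% of windows and in those of Dnajb11 and Herpud1.
Herpud1 (chr8:94386365-94386399, plus strand): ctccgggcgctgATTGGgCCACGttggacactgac
The unfolded protein response element, TGACGTGG on either strand, was found in 0.676% of windows, Txndc5 and Txndc11 among them. The E-box CACGTG, a sequence that MYC and other factors bind, was found in 7.15% of windows, among them those of Dnajb9, Txndc5, Calr, Derl3 and Atf6b. Matches of different motifs did not overlap in these genes. A match describes letters and not a bound site.

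Split by promoter, the 9 members with an exact ERSE had median log2 ratios of -0.29, -1.14 and -1.65 for AP, DLP and VP. The 29 members with a window but no exact match had -0.07, -0.57 and -0.66. In VP 7 of the 9 and 8 of the 29 were at least 2-fold lower (5.95% of all genes). In DLP 5 of the 9 and 3 of the 29 were (3.39%), and in AP 2 of the 9 and 3 of the 29 (0.599%). The sets overlapped, since Dnajc10 (-3.01) and Pdia4 (-2.08) hold no exact match and Canx (-0.30) and Syvn1 (-0.33) do. The other 9 tested genes with an exact ERSE had medians of -0.18, -0.34 and -0.62. Members without the exact letters may hold a variant of them.

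**Figure D4:**
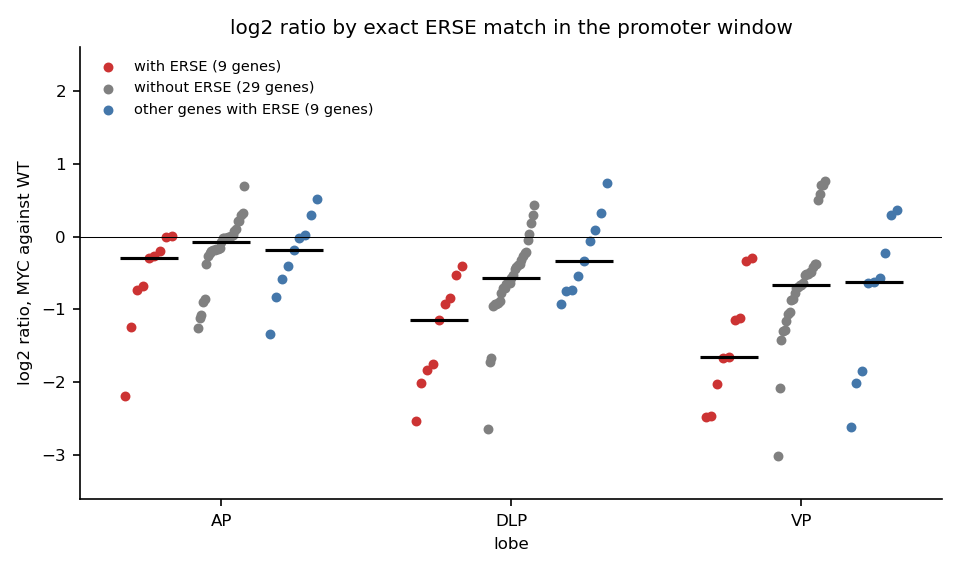
Log2 ratio of MYC against WT (y axis) per lobe (x axis) for the 9 members with an exact ERSE in the promoter window, the 29 members without and the other 9 tested genes with one. Each point is a gene and each bar a median, and in VP the medians are -1.65, -0.66 and -0.62.

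The WT lobes show the starting order. Of the 43 genes, 20 had their highest WT level in VP, 18 in DLP and 5 in AP, beside 32.1%, 35.3% and 32.6% of all genes. Against WT AP, 11 members were at least 2-fold higher in WT VP (7.89% of all genes) and none lower (10.3%), and 4 were higher in WT DLP (3.85%) and none lower (1.31%). Against WT DLP, 5 were higher in WT VP (2.63%) and none lower (6.29%). At 1.5-fold the counts higher and lower were 17 and 2 for VP against AP (17.1% and 20.7% of all genes), 8 and 1 for VP against DLP (6.93% and 17.9%) and 13 and 1 for DLP against AP (12.2% and 4.98%). Ratios below 0 were found for 7, 22 and 9 members in these comparisons, and for 50.8%, 63.6% and 38.1% of all genes. The group made up 1.71% of the summed FPKM in WT AP, 1.93% in WT DLP and 2.64% in WT VP, and 1.41%, 0.998% and 1.05% in the MYC lobes.

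The luminal keratins also differed between WT lobes, and not all luminal markers followed them. Of 10 luminal markers, 4 were at least 2-fold higher in WT VP than in WT AP (7.89% of all genes). Another 4, Cd24a, Foxa1, Epcam and Cdh1, had ratios below 0, and the median of the 10 was 0.58. Krt8 and Krt18 were themselves at 1292 and 1611 FPKM in WT VP against 399.9 and 548.7 FPKM in WT AP. Relative to their mean, no member was 2-fold higher in WT VP than in WT AP and 26 of 43 were lower, with a median of -1.06 in place of 0.52. The scaling lowers WT VP for most genes, and 8386 of all 12361 were then 2-fold lower and 158 higher, with the median of all genes at -1.29 in place of -0.01. Against WT DLP the members' median went from -0.02 to -1.52 and that of all genes from -0.13 to -1.41. With FPKM of equal sums, 6 members rather than 11 were 2-fold higher in WT VP than in WT AP, and 2 rather than 4 in WT DLP. Of markers of other cells, 10 of 10 endothelial and 7 of 8 basal genes were at least 2-fold lower in WT VP than in WT AP (medians -2.21 and -1.44). The same held for 8 of 12 hematopoietic and 5 of 12 fibroblast genes (medians -1.25 and -0.91), and for 10.3% of all genes. Smooth muscle markers went the other way, with 9 of 10 ratios above 0 and a median of 0.48, though none passed 2-fold. The part of these cells in the lobe order was not tested.

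The members highest in WT VP were Herpud1, Eif2ak3, Ddit3, Creb3l1 and Edem3, at 2.65-fold or more above WT DLP and 3.36-fold or more above WT AP on FPKM. They include a sensor, a membrane-bound transcription factor and CHOP, whereas Trib3, Chac1 and Asns of the ATF4 arm were highest in WT AP. The 2-fold excess of WT DLP over WT AP was seen for Dnajc10 (1.36), Edem2 (1.21), Ppib (1.13) and Pdia6 (2.01-fold on FPKM). P4hb (1.58), Uggt1 (1.09), Ppib (1.07), Edem2 (1.07), Dnajc10 (1.06) and Calr (1.03) completed the genes past 2-fold between WT VP and WT AP. Relative to Krt8 and Krt18, where the median of all genes was -1.29 for VP against AP and -1.41 for VP against DLP, those 6 ratios turned negative, as did VP against DLP for Herpud1 (-0.06) and Edem3 (-0.16). Eif2ak3, Creb3l1 and Ddit3 also fell under 2-fold there, at 0.30, 0.31 and 0.36 against DLP, and all 5 were at 0.13 to 0.35 against AP. Ern1 was the 1 member at least 1.5-fold lower in WT VP than in WT DLP (-0.80).

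**Figure D5:**
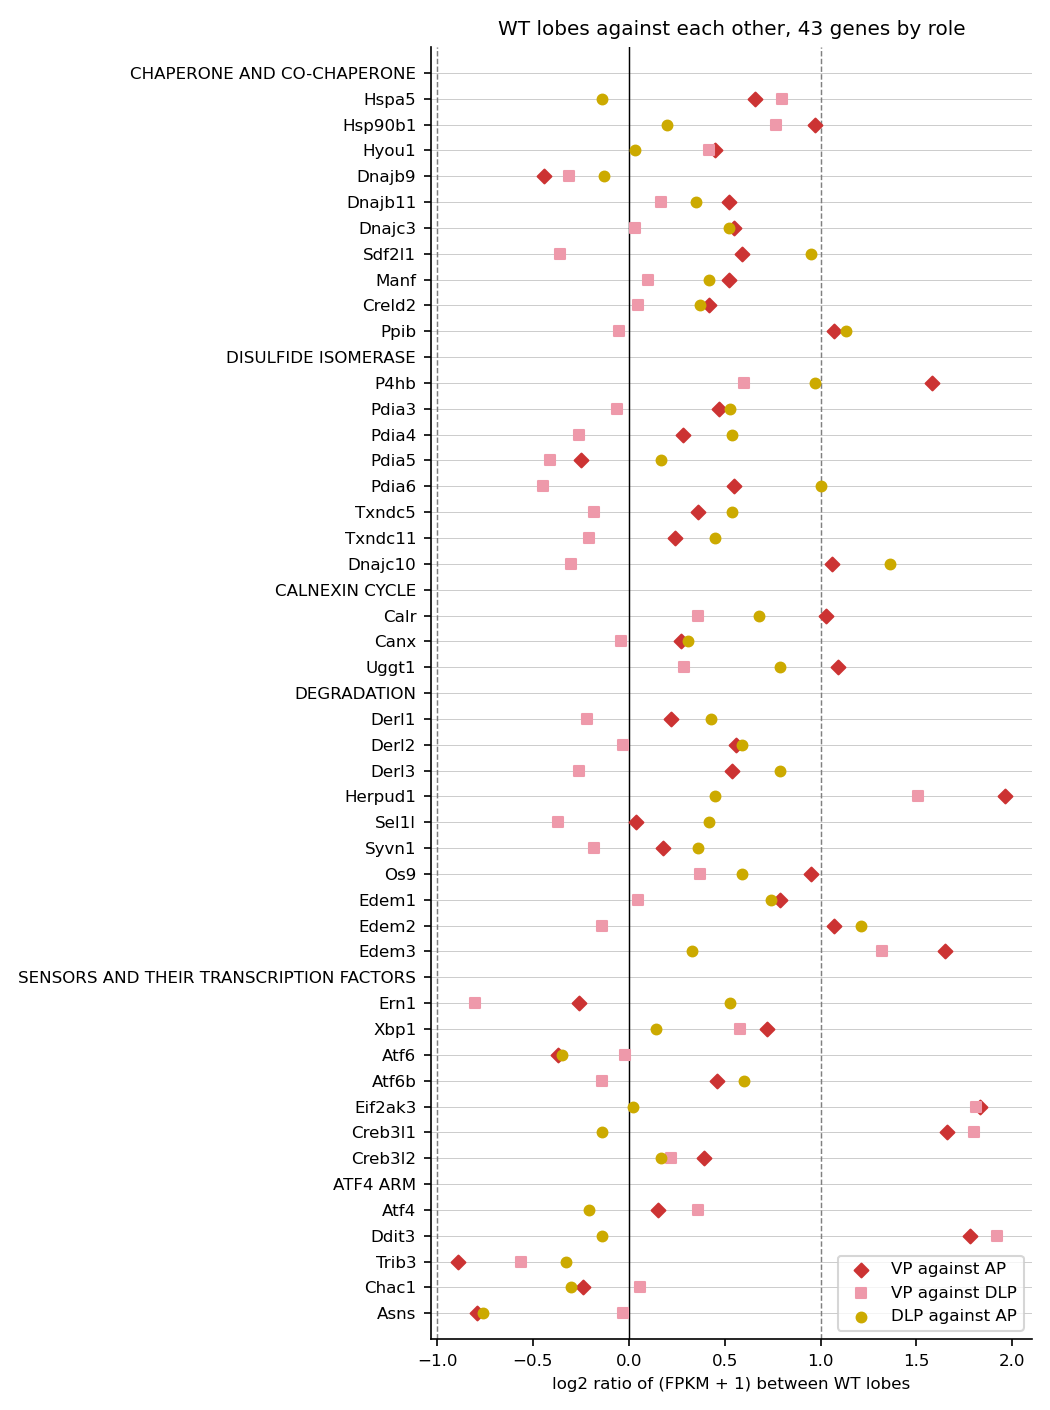
Log2 ratio between WT lobes on FPKM + 1 (x axis) for each of the 43 genes (y axis, grouped by role), for VP against AP, VP against DLP and DLP against AP, with dashed lines at 2-fold. Eif2ak3, Creb3l1, Ddit3, Herpud1 and Edem3 lie right of the line for VP in both its comparisons, and relative to Krt8 and Krt18, where the median of all genes is -1.41 for VP against DLP, all 5 are under 2-fold in both, with Herpud1 and Edem3 below 0 against DLP.

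Other genes of the secretory path, taken from lists, had smaller median shifts than the members. The 63 tested further genes of ER folding, degradation and the unfolded protein response had medians of 0.09, -0.20 and -0.30. Past 2-fold, none was lower and 2 were higher in AP, 3 lower and 4 higher in DLP, and 7 lower and 2 higher in VP. Fkbp2, an ER prolyl isomerase, fell from 228.6 to 97.6 FPKM in DLP and from 225 to 70.8 FPKM in VP. Erp44, which retains proteins in the early secretory path, fell from 57.0 to 20.7 FPKM in DLP and from 31.7 to 14.6 FPKM in VP, and Erlec1, a lectin of degradation, had ratios of -1.06 and -1.17 there. Ero1l, the oxidase that recharges disulfide isomerases, went the other way, from 7.33 to 26.8 FPKM in DLP and from 7.75 to 25.9 FPKM in VP, and these examples were picked with their values in view.

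Of 35 genes of the translocon and oligosaccharyltransferase, which thread chains into the ER and attach their sugars, none was 2-fold lower in AP, 1 was in DLP and 2 were in VP, and none was higher (medians 0.11, -0.26 and -0.13). The 27 genes listed as chaperones outside the ER had medians of 0.25, 0.06 and 0.27. In VP 4 of them were 2-fold higher and none lower, and at 1.5-fold 7 were higher and 4 lower. The 4 were Cct2 and Cct5 of the chaperonin, the mitochondrial Hspd1 and the small heat shock protein Hspb8, which were named after their values were seen. Of 32 further ATF4 targets (medians -0.31, -0.25 and -0.20), 1 was 2-fold lower and none higher in AP, 5 were 2-fold lower and 2 higher in DLP, and 4 lower and 2 higher in VP. Lower in both were Atf5 (-1.02 and -1.37), Slc7a5 (-1.51 and -1.26) and Wars (-1.51 and -1.06), and higher in both was Ddit4 (1.09 and 1.08), each named after its values were seen.

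Prostate secretory products changed in the same libraries, in both directions. Of 11 tested genes listed for prostatic secretion, 6 were at least 2-fold higher and none lower in MYC AP (median 1.51), 4 higher and 6 lower in DLP (-1.58), and 2 higher and 7 lower in VP (-2.82). The sums over all 12 listed genes went from 7051.8 to 7023.8 FPKM in AP, from 43238 to 6858.8 FPKM in DLP and from 41261 to 21049 FPKM in VP. The VP sum in MYC is nearly all Sbpl, which was listed at 0 in WT VP and at 20150 FPKM in MYC VP. The part of these products in the level of the ER genes was not tested.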

How the data were processed

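Bulk RNA-seq of 6 libraries was used. The authors deposited 1 table of FPKM. Per the methods and the submitters' processing notes, single-end reads were converted with bcl2fastq 2.18, mapped with STAR to mm10 and quantified with Cufflinks within VIPER. The methods also name read counts and DESeq2, but the values are not whole numbers, so no count model was run. No sample column was left unused (0). Values were compared as log2(FPKM + 1), in genes averaging 1 FPKM or more, with folds of 2 and 1.5. With 1 library per group no test was made. The members and lists were chosen with earlier results of these data known. Values in every library are given for members past 2-fold in any comparison, the highest of each role, and Hspa5, Hsp90b1, Xbp1, Ern1, Ern2, Atf6, Eif2ak3, Atf4 and Ddit3, and others by range. Reads were estimated from FPKM, GENCODE M1 transcript lengths and the depth recovered from genes under 0.3 FPKM, where 42.5% to 53.7% of values lay within 0.05 of whole reads (10% by chance). Exact 95% Clopper-Pearson intervals of read ratios cover counting error only. RefSeq tables (GRCm38.p6) gave coordinates and promoters; 10 members overlap another protein-coding gene. Alternatives were a pseudocount of 0.1, no filter or a mean of 10 FPKM, size factors, equal sums, Krt8 and Krt18, and thinned reads. Computations were tested on simulated data. Software was Python 3.11.15 with pandas 2.3.3, numpy 2.4.6, matplotlib 3.10.9 and scipy 1.17.1.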

Additional observations from a re-analysis of the deposited data

Results flagged for a closer look

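The MYC against WT ratio of 2 genes had opposite signs in a pair of lobes, with both counting intervals clear of 0 and the ratios at least 2-fold apart. These are 4.65% of the 43 members, and of 12195 genes with an interval in every lobe 1327 (10.9%) met the same rule, so the share of members was not above that of all genes. With 1 library per group these differences were not tested. Ddit3 was higher in MYC DLP (0.43) and lower in MYC VP (-1.28), a difference of -1.71 on the log2 scale. Asns was lower in MYC AP (-1.12) and higher in MYC VP (0.58), a difference of 1.70, and it was lower in MYC DLP (-0.95), which differs from VP by 1.53.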

How the results depend on the processing

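No paired analysis was possible because each genotype is 1 mouse, so that lobes matched across genotypes are samples of the same 2 animals and not replicate pairs. Members at least 2-fold lower in MYC numbered 5 in AP, 9 in DLP and 18 in VP. At 1.5-fold they numbered 11, 24 and 26, with 1 higher in AP and 3 in VP, and between WT lobes 17 were higher and 2 lower in VP against AP, 8 and 1 in VP against DLP, and 13 and 1 in DLP against AP. Size factors gave a member median of -0.31 in AP, -0.80 in VP, 0.60 in WT VP against AP, 0.18 in VP against DLP (reversed from -0.02) and 0.28 in DLP against AP, with 2 members higher in the last. Equal sums gave -0.93 in VP, 0.39 in WT VP against AP (6 higher, 1 lower), 0.05 in VP against DLP (reversed) and 0.21 in DLP against AP (2 higher). Relative to Krt8 and Krt18 the median was 0.01 in AP (reversed; 3 lower), -0.88 in DLP (19 lower), -0.43 in VP, -1.06 in WT VP against AP (reversed; 0 higher, 26 lower) and -1.52 in VP against DLP (0 higher, 34 lower). Under that scaling VP against AP reversed for Ppib (-0.54), P4hb (-0.03), Dnajc10 (-0.55), Calr (-0.58), Uggt1 (-0.45) and Edem2 (-0.50), and VP against DLP for Herpud1 (-0.06) and Edem3 (-0.16). A mean of 10 FPKM gave 0.04 in VP against DLP (reversed). The cause was not tested beyond the scaling itself. All genes past 2-fold went from 74 lower and 254 higher to 134 and 200 in AP with size factors, from 419 and 799 to 742 and 656 in DLP relative to the keratins, and from 778 and 325 to 532 and 496 in WT VP against DLP with size factors; relative to the keratins 8386 of all 12361 genes were lower and 158 higher in WT VP against AP, and 9904 and 63 in VP against DLP (medians -1.29 and -1.41). Of 208 values of named members past 2-fold under 4 alternatives, 33 fell under 2-fold, 8 of which reversed. Thinned to the shallowest library, AP kept a count of 5 lower. Depth limits Trib3 most, with at least 83 estimated reads.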

Other observations

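Outside the group, 3 of the other 9 tested genes with an exact ERSE in the promoter window were at least 2-fold lower in MYC VP, all from the Xlr3 cluster of near-identical X-linked genes, among which reads may be shared. In VP Xlr3a went from 16.5 to 1.87 FPKM (-2.61), Xlr3b from 11.1 to 1.998 FPKM (-2.01) and Xlr3c from 7.99 to 1.52 FPKM (-1.84). In AP their ratios were -1.34, -0.83 and -0.58. Alg12, an ER mannosyltransferase that also holds the element, had ratios of -0.40, -0.54 and -0.57 in AP, DLP and VP. The choice of these genes was made with their values in view.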
